A study of Rattus norvegicus with 6 samples.

Results

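Nitric oxide synthases and the genes that carry their signal to cyclic GMP were examined in the maternal thyroid of rats. The members were taken by gene symbol: the neuronal synthase Nos1, the inducible synthase Nos2, the endothelial synthase Nos3, the soluble guanylate cyclase subunits Gucy1a3 and Gucy1b3, the cGMP-dependent kinase Prkg1, the cGMP phosphodiesterase Pde5a, and the dimethylarginine hydrolases Ddah1 and Ddah2. Of these 9 genes, 7 were found among the 15388 genes of the count tables, and Nos2 and Prkg1 were not analysed here. RNA-seq of polyA+ RNA was performed on whole thyroid of adult Sprague-Dawley rats, 3 samples from non-pregnant (NP) rats and 3 from rats on day 18 of pregnancy (late pregnancy, LP, the plug day being day 1). No age, treatment or genetic change is given for either group. The members were chosen with results of LP against NP known, that of Nos1 among them. Their values and calls for this contrast are therefore a description, and no p-value is printed for them.

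Nitric oxide synthases make nitric oxide from arginine. The gas diffuses to neighbouring cells and binds soluble guanylate cyclase, which then makes cGMP, and cGMP acts mainly through its kinase, which relaxes vascular smooth muscle. In the thyroid this pathway is best known for the control of blood flow through the dense capillary net around the follicles. Nos3 is the form of endothelial cells, while Nos1 is found in neurons and also in skeletal muscle fibres, where it is held at the membrane by the dystrophin complex.

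To show what separates the genes of the neuronal and the endothelial synthase at their starts, a promoter window of each was taken from RefSeq (build GRCr8). Each holds 250 bases before and 50 from the start site and is written 5′ to 3′ on the strand of the gene. The counts were made on rn5, so these positions were not joined to the reads. Capitals mark the cAMP response element TGACGTCA or its core TGACG in Nos1, and the GC box GGGCGG in Nos3.
Nos1, chr12:44371788-44372087, minus strand: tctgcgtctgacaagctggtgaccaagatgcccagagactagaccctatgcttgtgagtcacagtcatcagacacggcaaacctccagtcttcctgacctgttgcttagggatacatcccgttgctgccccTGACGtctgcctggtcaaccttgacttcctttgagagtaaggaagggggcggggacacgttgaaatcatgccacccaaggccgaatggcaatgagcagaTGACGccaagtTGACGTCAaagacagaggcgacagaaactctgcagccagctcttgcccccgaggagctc
Nos3, chr4:11706532-11706831, minus strand: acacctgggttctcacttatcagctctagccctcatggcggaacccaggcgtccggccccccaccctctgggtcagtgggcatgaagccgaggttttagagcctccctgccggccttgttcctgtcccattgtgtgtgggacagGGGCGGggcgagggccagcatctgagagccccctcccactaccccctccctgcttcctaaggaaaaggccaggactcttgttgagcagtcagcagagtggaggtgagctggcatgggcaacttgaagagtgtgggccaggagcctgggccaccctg

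The Nos1 window held 1 full TGACGTCA, which lay 9 to 2 bases before the start site. The full element was found in 1.83% of 33469 RefSeq promoter windows of the same length, searched on both strands. The core TGACG matched at 4 places in Nos1, of which 2 are the strands of the full element, and was present in 21.2% of all windows. No TGACG was found in the Nos3 window. The GC box was common to both genes, with 1 match each, and to 33.1% of all windows. The muscle element MCAT (CATTCC) had no match in either window, against 14.2% of all windows. The Nos1 window lies inside the span that RefSeq gives the gene, so it belongs to 1 of several start sites, and which of them the thyroid uses was not measured. A letter match describes the sequence and shows no binding.

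Nos1 was also the member that the study measured by quantitative RT-PCR in other animals, and the primers are shown because they name the transcript assayed (ENSRNOT00000066810), which is also the identifier of its row in the count tables. Their sequences are given 5′ to 3′.
Nos1 forward primer: ggcgtccgtgactactgt
Nos1 reverse primer: aaatccatcttcttggctact

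The libraries held 2752144 to 2965936 counted reads in NP and 3224104 to 3449857 in LP, so that 3 reads of a library stood for 0.87 to 1.09 counts per 1000000 (CPM). All 10 thyroid follicular markers examined were present, and their summed level lay between 231100 and 257870 CPM. Of those with the highest level, Tg, Foxe1 and Pax8 had log2 fold changes of 0.06, -0.05 and -0.06. Tg did not pass in the main fit (adjusted p = 0.06 in edgeR's test). It passed with the replicate number as a block (adjusted p = 2.49e-43), a fit whose p-values rest largely on counting noise. At an adjusted p-value below 0.05, 3 of the 10 rose and 3 fell, beside 15.3% and 11.7% of all genes tested. Named after their values were seen, Slc5a5, Tshr and Dio1 fell by 0.94, 0.68 and 0.43 on the log2 scale, and Duoxa2, Duox2 and Nkx2-1 rose by 0.48, 0.29 and 0.28. Between replicates 2 and 3 no difference beyond sampling noise was found in NP (chi-square 1.02 per degree of freedom, p = 0.111) or in LP (0.995, p = 0.667). They were counted as 1 sample in each mean ± SD, which leaves n = 2 in each group. The main fit took every library as a separate sample, so its standard errors, intervals and p-values may be too small. The labels give 3 rats a group and call the libraries repeats, without tying each library to an animal, so errors and p-values measure the spread between these samples, which may be technical. Replicate 1 stood apart from replicates 2 and 3 in both groups, with chi-square values of 3.70 to 4.11 per degree of freedom. The 12 smooth muscle and pericyte markers summed to 524 and 423 CPM in replicate 1 of NP and LP, against 1826 to 1978 CPM in the other 4 samples. Not all 12 were low there: Notch3 stood at 91.2 CPM in NP replicate 1 and at 92.4 and 84.7 CPM in NP replicates 2 and 3. Because replicate 1 stood apart, the fold changes are also given for replicate 1 alone and for replicates 2 and 3 alone, settings chosen after seeing the data.

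Among the 7 members, Nos1 was the 1 gene past the criteria used for calls: more than 2-fold between the groups, with a Benjamini-Hochberg p under 0.05 from edgeR's quasi-likelihood test on 11738 genes. Over all genes tested, 5.44% were past these criteria, and 4.9% were past them with a higher level in LP. The other 6 members had fold changes between 0.82 and 1.12 and did not pass. The median of all 7 was a log2 fold change of 0.03, beside -0.01 for all genes tested. In Nos1 and Ddah2 every LP sample lay above every NP sample, which was so for 21.1% of all genes tested. Groups were apart in either direction for 40.1% of them.

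Nos1 was covered by 2, 2 and 6 reads in NP, against 78, 78 and 64 in LP. The level was thus at or near the limit of the depth in NP and far above it in each LP sample. After scaling, Nos1 stood at 0.715, 0.655 and 1.97 CPM in NP and at 24.9, 23.1 and 19.0 CPM in LP. The mean was 1.01 ± 0.42 CPM (SD, n = 2) in NP and 23.0 ± 2.7 CPM (SD, n = 2) in LP. The log2 fold change was 4.26 (standard error 0.31), a fold change of 19.2, and 1.09% of the genes tested had a larger one. With the reads of each group added up, 10 in NP and 220 in LP, the ratio was 19.8 with an exact 95% Poisson interval of 10.6 to 41.9. This interval covers counting error only and treats all libraries as separate draws. The log2 fold change was 4.81 in replicate 1 and 3.92 in replicates 2 and 3. Reads were counted per gene, so the splice forms of Nos1 were not told apart.

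**Figure D1:**
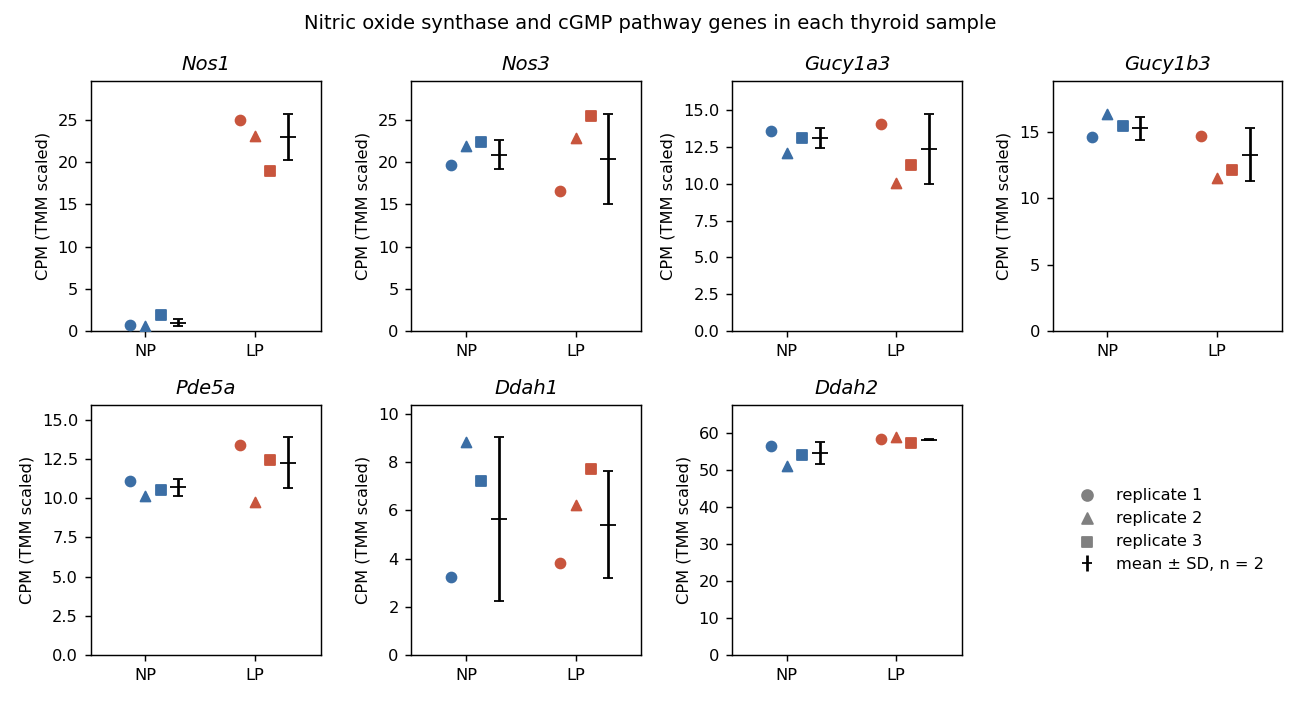
Level of the 7 members in each sample, in TMM-scaled CPM on axes that start at 0, with a symbol for each replicate and the mean ± SD (n = 2, replicates 2 and 3 averaged) in black. Nos1 lies between 0.655 and 1.97 CPM in NP and between 19.0 and 24.9 CPM in LP, while the groups of every other gene except Ddah2 overlap.

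Nos3 makes the nitric oxide of vessel walls. It stood at 19.7, 21.9 and 22.3 CPM in NP and at 16.6, 22.8 and 25.5 CPM in LP. Both the lowest and the highest of the 6 values were LP samples, and the groups overlapped. The mean was 20.9 ± 1.8 CPM in NP and 20.4 ± 5.3 CPM in LP (SD, n = 2). The log2 fold change was 0.03 (standard error 0.16), with a 95% interval of -0.28 to 0.33. A 2-fold change in either direction lay outside this interval, which takes the 6 libraries as separate samples and may be too narrow. Its sign was not fixed, with -0.24 in replicate 1 and 0.13 in replicates 2 and 3.

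The neuronal and the endothelial synthase therefore differed in their change, by 4.24 on the log2 scale. Gene lengths were not used, so reads of both genes do not compare their levels, but their ratio can be followed across samples. Of the reads on Nos1 and Nos3 together, Nos1 took 3.51% (95% Wilson interval 0.968% to 11.9%), 2.90% (0.799% to 9.97%) and 8.11% (3.77% to 16.6%) in the NP samples. In the LP samples its share was 60.0% (51.4% to 68.0%), 50.3% (42.5% to 58.1%) and 42.7% (35.0% to 50.7%). These intervals cover counting error only, and those of NP rest on 2, 2 and 6 Nos1 reads. Every LP share was above every NP share, while the Nos3 reads were 55, 67 and 68 in NP and 52, 77 and 86 in LP. The comparison is named in the choice of the members, so it is given without a test.

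**Figure D2:**
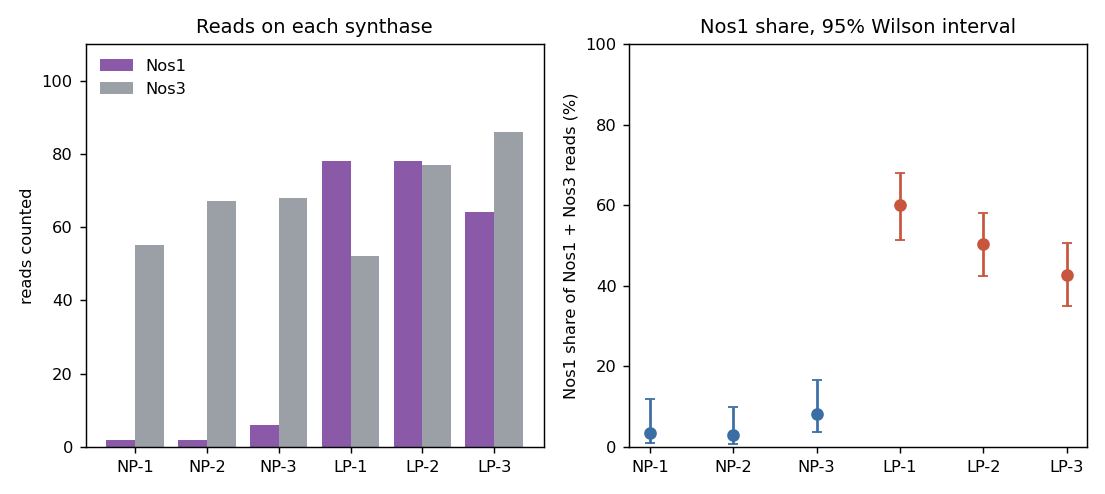
Reads counted on Nos1 and Nos3 in each sample (left, bars from 0) and the share of Nos1 in the reads of both genes in percent with its 95% Wilson interval (right). The share is between 2.90% and 8.11% in the NP samples and between 42.7% and 60.0% in the LP samples.

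Gucy1a3 and Gucy1b3 encode the α1 and β1 subunits of soluble guanylate cyclase, the receptor of nitric oxide. Gucy1a3 stood at 13.6, 12.1 and 13.1 CPM in NP and at 14.1, 10.1 and 11.3 CPM in LP. Gucy1b3 stood at 14.7, 16.4 and 15.4 CPM in NP and at 14.7, 11.6 and 12.2 CPM in LP. In both genes LP replicate 1 lay within or above the NP values while the other LP samples lay below them. The log2 fold change was -0.14 (standard error 0.19, interval -0.50 to 0.23) for Gucy1a3. For Gucy1b3 it was -0.28 (standard error 0.17, interval -0.61 to 0.05). Neither interval reached a 2-fold change, with the libraries again taken as separate samples.

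Both subunits pair to form the enzyme. The log2 ratio of Gucy1a3 to Gucy1b3 reads lay between -0.43 and -0.11 in NP and between -0.20 and -0.06 in LP, so that the ratio overlapped between the groups. In replicates 2 and 3 alone the log2 fold changes were -0.24 for Gucy1a3 and -0.42 for Gucy1b3, and in replicate 1 they were 0.05 and 0.002.

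Pde5a breaks down cGMP and is the target of sildenafil. Its values were 11.1, 10.2 and 10.5 CPM in NP and 13.4, 9.78 and 12.5 CPM in LP. LP replicate 2 was the lowest of the 6 samples and LP replicate 1 the highest. The log2 fold change was 0.17 (standard error 0.19, interval -0.21 to 0.54).

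Ddah1 and Ddah2 break down asymmetric dimethylarginine, which inhibits the synthases. Ddah2 stood at 56.5, 51.1 and 53.8 CPM in NP and at 58.1, 58.7 and 57.3 CPM in LP. Each LP sample was above each NP sample, by little, and the log2 fold change was 0.11 (standard error 0.08, interval -0.04 to 0.26). Ddah1 stood at 3.22, 8.84 and 7.22 CPM in NP and at 3.83, 6.23 and 7.71 CPM in LP. In both groups replicate 1 was the lowest sample, and the samples separated by replicate rather than by group. The log2 difference of replicate 1 from replicates 2 and 3 was -1.26 in NP and -0.82 in LP, while the log2 fold change of LP over NP was -0.12 (standard error 0.33, interval -0.78 to 0.53).

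The levels of other cell types moved with some of these values. Of the 21 skeletal muscle markers examined, 15 were in the tables, 12 were tested and 11 rose past the criteria in LP, with a median log2 fold change of 7.47 over the 12. Their summed level was 34.7 to 83.1 CPM in NP and 5412 to 5734 CPM in LP. Over all genes, 4.9% were past the criteria and higher in LP. The marker that did not pass was Acta1, skeletal actin, named after its values were seen. It had 0, 166 and 144 NP reads against 0, 186 and 185 LP reads. Its change was 0.11 on the log2 scale (standard error 0.65, adjusted p = 0.93 in edgeR's test). Mybpc2, below the filter, had 0, 1 and 3 NP reads against 0, 1 and 1 LP reads. Of the 15, 3 had no read in any NP sample (Myh1, Mylpf and Myod1). Reads on Tnnc2, fast troponin C, were 22, 14 and 26 in NP and 4554, 4532 and 4641 in LP. Neb, Atp2a1 and Ryr1, which encode nebulin, the calcium pump and the calcium release channel of muscle, had log2 fold changes of 7.12, 8.22 and 7.94 (adjusted p from 6.88e-20 to 5.10e-18 in edgeR's quasi-likelihood test). Nos1 is expressed in skeletal muscle, and its change was smaller than that of these genes. There were 2062, 810 and 2372 Nos1 reads per 100000 reads on the 15 muscle markers in NP, and 435, 427 and 351 in LP. The NP values rest on 2, 2 and 6 Nos1 reads beside 97, 247 and 253 marker reads, so their counting error is large. Without Acta1, a marker left out after seeing the data because it had no read in replicate 1 of either group, the values were 2062, 2469 and 5505 in NP and 435, 432 and 354 in LP. The part of muscle RNA in the Nos1 result was not tested. In bulk tissue more cells of a type and more RNA per cell cannot be told apart.

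Neuronal markers gave no like change as a sum. Of 11 listed, 10 were in the tables and 4 were tested, and their summed level lay between 130 and 154 CPM in NP and between 122 and 143 CPM in LP. Uchl1 alone stood at 94.3 to 112 CPM in NP and at 89.9 to 108 CPM in LP, so the sum mainly follows this gene. Uchl1, Snap25 and Prph had log2 fold changes of -0.04, -0.20 and 0.10, and Nefm, a neurofilament, fell by 1.59 (standard error 0.32, adjusted p = 0.001 in edgeR's test). Dbh and Nefl had no read in any NP sample, and 0, 0 and 2 and 1, 2 and 2 reads in LP, too few to test. For the endothelium, after which Nos3 is named, all 15 markers in the tables of 17 listed were tested. Of these 2 rose and 8 fell at an adjusted p-value below 0.05, the shares over all genes being 15.3% and 11.7%, with a median log2 fold change of -0.23. The summed level was 1611 to 1670 CPM in NP and 1444 to 1478 CPM in LP. Plvap, Flt1 and Kdr fell by 0.15, 0.45 and 0.31 on the log2 scale, and Eng rose by 0.26. Past the 2-fold criteria was 1 marker, Robo4, named after its values were seen, where 4.9% of all genes were higher in LP. It had 2, 6 and 7 NP reads against 15, 12 and 15 LP reads, a rise of 1.32 (adjusted p = 0.0202 in edgeR's test). Nos3 reads per 1000 endothelial marker reads were 11.8, 13.6 and 13.5 in NP and 11.5, 15.6 and 17.3 in LP, and overlapped.

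**Figure D3:**
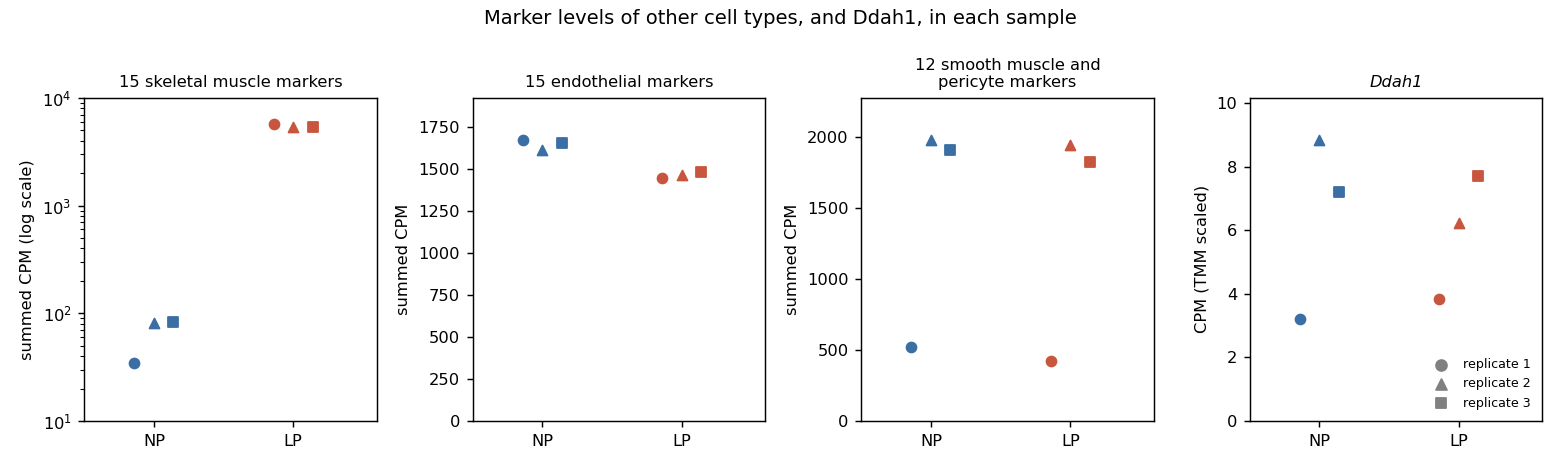
Summed CPM of the skeletal muscle markers (log axis), the endothelial markers and the smooth muscle and pericyte markers, and the CPM of Ddah1, in each of the 6 samples (linear axes start at 0, symbols mark replicates). The muscle sum is 34.7 to 83.1 CPM in NP and 5412 to 5734 CPM in LP, while the smooth muscle sum and Ddah1 are low in replicate 1 of both groups.

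Soluble guanylate cyclase and Pde5a are known from smooth muscle. Of the 11 smooth muscle and pericyte markers tested, 1 fell (Rgs5, by 0.40, named after its value was seen) and 0 rose, and DESeq2 also called 1. Over all genes tested, 11.7% fell and 15.3% rose at an adjusted p-value below 0.05. Acta2, Myh11 and Tagln, the actin, myosin heavy chain and transgelin of smooth muscle, differed between replicates rather than groups, with log2 differences of replicate 1 from the other replicates of -2.13, -2.70 and -3.20 in NP and -2.66, -3.11 and -3.53 in LP. Notch3, of pericytes and mural cells, had a log2 fold change of -0.09. With the replicate number as a block Acta2, at a log2 fold change of -0.14, passed as well (adjusted p = 0.00542), as did Smtn, smoothelin, at 0.34 (adjusted p = 0.00115), named after its value was seen. The same difference of replicate 1 was 0.12 and 0.40 for Gucy1a3, -0.11 and 0.32 for Gucy1b3 and 0.11 and 0.28 for Pde5a in NP and LP. These 3 genes therefore did not share the low level of Acta2, Myh11 and Tagln in replicate 1, while Ddah1 was low there in both groups. Rgs5, of the same marker list, did not share it either. It stood at 78.3, 72.1 and 69.6 CPM in NP and at 56.9, 57.5 and 52.2 CPM in LP. Of 9 macrophage markers, all tested, 0 changed at an adjusted p-value below 0.05 in edgeR or DESeq2, with 2 at an unadjusted p below 0.05, and their summed level lay between 168 and 188 CPM in NP and 184 and 208 CPM in LP. The highest were C1qa, C1qc, Csf1r and C1qb, with log2 fold changes of 0.33, 0.13, 0.26 and 0.27, and C1qa passed with the block (adjusted p = 0.00745).

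Of 77 further genes of the pathway, listed by role, 60 were in the tables and 48 were tested. Of these, 5 were past the criteria, 4 higher and 1 lower in LP, or 10.4% beside the 5.44% of all genes. The lists were chosen with earlier results of these data known, so these shares are a description and show no enrichment. At an adjusted p-value below 0.05 alone there were 5 higher and 9 lower, or 29.2%, where 27% of all genes passed. With the replicate block these were 6 higher and 15 lower, and 32.2% of all genes passed in that fit. The median log2 fold change of the 48 was -0.08.

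The proteins that regulate or anchor the synthases held 3 of the 5. Of 17 tested, 4 rose and 3 fell at an adjusted p-value below 0.05, beside 15.3% and 11.7% of all genes. Those that fell, named after their values were seen, were Dynll1, Hsp90ab1 and Calm2, a dynein light chain, a chaperone and a calmodulin gene, at log2 fold changes of -0.33, -0.25 and -0.16. Caveolin 3 (Cav3), the caveolin of muscle fibres and a binding partner of Nos1, had 0, 1 and 0 reads in NP, against 78, 107 and 93 in LP. Added up, this was 1 read against 278, a ratio of 250.5 with an exact Poisson interval of 44.6 to 9928. Dystrophin (Dmd) had 2, 19 and 15 NP reads against 46, 63 and 57 LP reads, which gave 2.05 as the log2 fold change (standard error 0.32, adjusted p = 0.000106 in edgeR's test). The change of Dmd was larger in replicate 1, at 4.06, than in replicates 2 and 3, at 1.66. α-Dystrobrevin (Dtna) had 61, 47 and 60 NP reads against 184, 174 and 180 LP reads, and rose by 1.53 (standard error 0.12, adjusted p = 2.74e-08). Dystroglycan (Dag1), which links dystrophin to the matrix, rose by 0.25 (standard error 0.05, adjusted p = 0.0014). The anchors that rose are also genes of skeletal muscle. Of its 12 markers tested, 11 rose past the criteria. The part of muscle RNA in the change of these anchors was not tested.

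Arginine is the substrate of the synthases. Of 7 genes of arginine and methylarginine metabolism tested, 3 fell and 0 rose at an adjusted p-value below 0.05, where 11.7% of all genes fell and 15.3% rose, DESeq2 also calling 3, and 4 had an unadjusted p below 0.05. Argininosuccinate synthase (Ass1), which returns citrulline to arginine, had 64, 66 and 49 NP reads against 26, 21 and 31 LP reads. Every LP sample was below every NP sample, and Ass1 fell by 1.34 on the log2 scale (standard error 0.20, adjusted p = 5.97e-05 in edgeR's test). The arginine transporter Slc7a1 had 66, 73 and 70 NP reads against 49, 50 and 40 LP reads and fell by 0.74 (standard error 0.15, adjusted p = 0.0011).

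Tetrahydrobiopterin is a cofactor of all synthases. Of the 6 genes of its metabolism, all tested, Pts, which makes its precursor, fell by 0.64 (standard error 0.21, adjusted p = 0.0337 in edgeR's test), and 0 rose. Over all genes tested, 11.7% fell and 15.3% rose at an adjusted p-value below 0.05. By DESeq2 0 of the 6 passed.

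The list of other cyclases also held natriuretic peptides and their clearance receptor, and most of its genes were too low to test. Of 8 in the tables, 2 were tested, the natriuretic peptide receptors Npr1 and Npr2. Npr1 had a log2 fold change of -0.24 (adjusted p = 0.055, or 0.0248 with the replicate block) and Npr2 of 0.15 (adjusted p = 0.247). Of the 2, 0 passed in edgeR or DESeq2 and 1 had an unadjusted p below 0.05. The receptor cyclase Gucy2g was below the filter, with 0, 2 and 1 NP reads against 7, 9 and 10 LP reads. It was put on the list after it had been seen in a table of the study, so its reads are given as a description.

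Of 9 phosphodiesterases of cGMP tested, 1 fell and 0 rose at an adjusted p-value below 0.05, beside 11.7% and 15.3% of all genes. DESeq2 called 0 of the 9, and 3 had an unadjusted p below 0.05. Pde3a, which cGMP inhibits, had 18, 20 and 18 NP reads against 7, 12 and 12 LP reads. At -0.995 on the log2 scale (standard error 0.29, adjusted p = 0.0173 in edgeR's test) its change lay just inside the 2-fold limit. Without NP replicate 2 or LP replicate 1 it missed the p threshold as well (adjusted p = 0.0603 and 0.0714).

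Of 7 effectors of cGMP tested, 1 rose and 1 fell at an adjusted p-value below 0.05, beside 15.3% and 11.7% of all genes. Kcnma1, the pore of the calcium-activated potassium channel that the cGMP kinase opens, had 7, 16 and 21 NP reads against 42, 31 and 38 LP reads, and rose by 1.18 (standard error 0.28, adjusted p = 0.00465 in edgeR's test). Its change was 2.34 in replicate 1 and 0.75 in replicates 2 and 3. Without NP replicate 1 it was 0.89 (adjusted p = 0.0196) and no longer past the criteria. With replicates 2 and 3 summed it was 1.24 (adjusted p = 0.0194). Vasp, an actin regulator that the kinase phosphorylates, had 225, 245 and 272 NP reads against 171, 223 and 209 LP reads and fell by 0.45 (standard error 0.08, adjusted p = 0.000357).

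**Figure D4:**
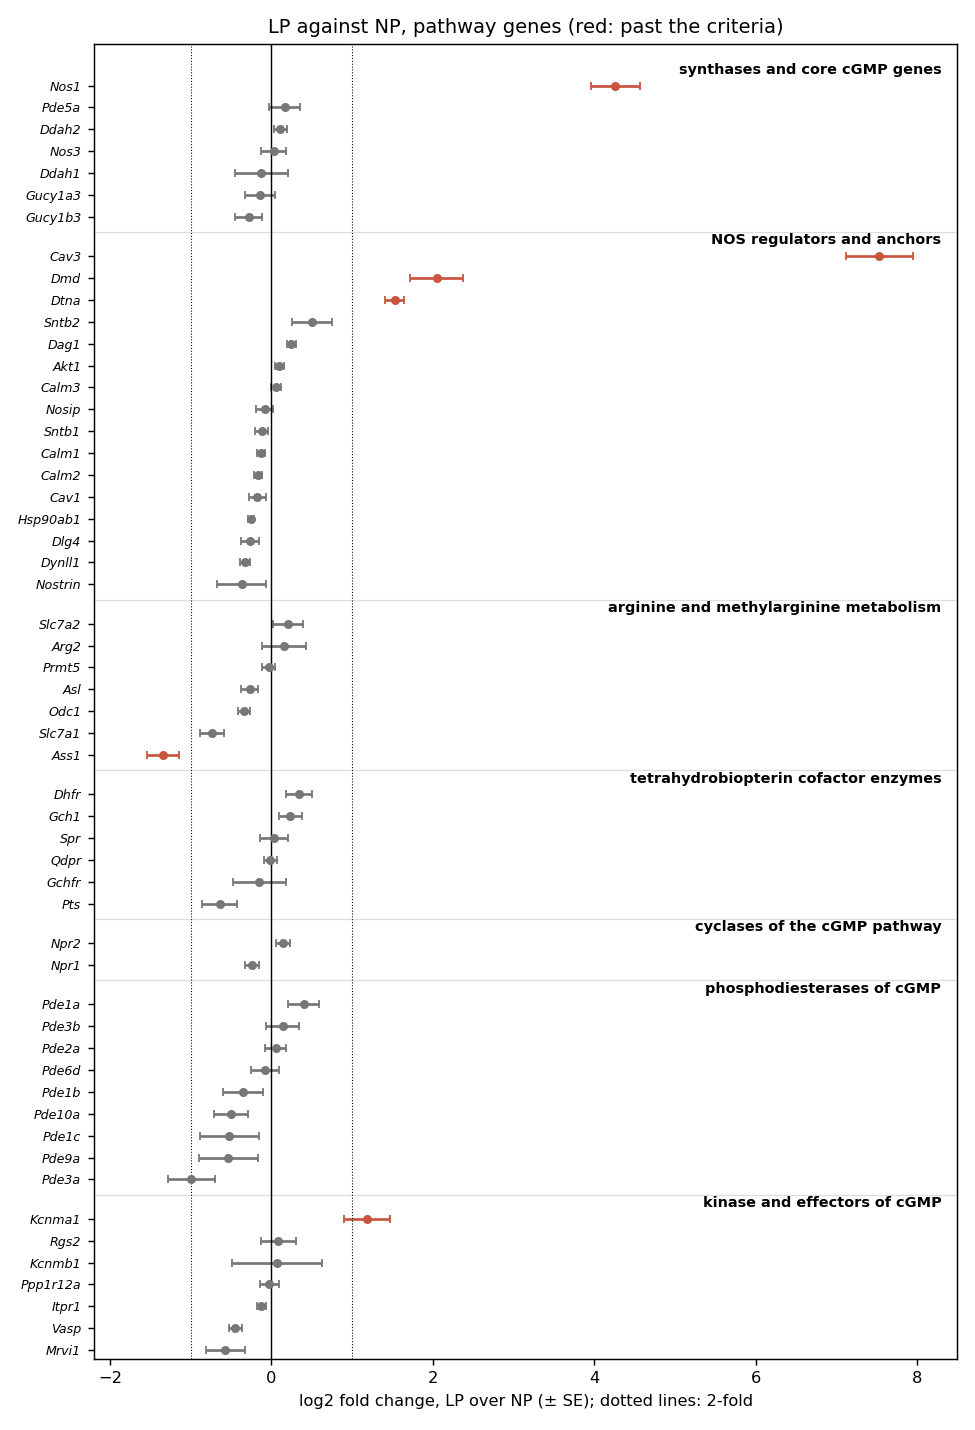
log2 fold change of LP over NP with its standard error for the 7 members and for the 48 other pathway genes tested except 1 that is not shown, grouped by role, with genes past the criteria in red and dotted lines at a 2-fold change. Nos1 at 4.26, Cav3, Dmd, Dtna and Kcnma1 lie to the right of the upper line and Ass1 at -1.34 to the left of the lower one, and the other genes lie between or at the lines.

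Genes with a pattern like that of the synthases were then sought by the Euclidean distance of log2 CPM values, centred for each gene over the 6 samples. The 5 nearest to Nos1 were Sgca, Ano5, Rxrg, Ddit4l2 and Mlip, at distances of 0.330 to 0.586. Sgca, α-sarcoglycan of the dystrophin complex, had 6, 5 and 10 NP reads against 137, 135 and 120 LP reads. Ano5 and Mlip, both known from skeletal muscle, had mean reads of 0.333 and 1.33 in NP and 30.3 and 57 in LP. Those of Rxrg and Ddit4l2 were 2.33 and 11.7 in NP and 52.7 and 193 in LP. The 5 nearest to Nos3 were Marveld3, Trim32, Chrac1, Thbd and Ube2e2, at distances of 0.119 to 0.184. The nearest, Marveld3, had 46, 52 and 52 NP reads against 43, 60 and 67 LP reads. Thbd, thrombomodulin of the endothelium, was farther off, at 0.183, with 101, 132 and 122 NP reads against 101, 132 and 148 LP reads. Which cells express the other genes near Nos3 was not examined. These distances describe 6 samples and carry no test.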

How the data were processed

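Per the labels and the study's methods, thyroid RNA passing quality control was made into TruSeq libraries and sequenced on an Illumina HiSeq system. The authors mapped reads to rn5 with TopHat 1.4.0, counted them on Ensembl gene models with HTSeq and deposited raw counts per gene, without normalization. Each row carries a gene symbol and a transcript identifier. Whether counting used strand is not given in the sources used here.

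The counts were tested with edgeR 4.0.16 in R 4.3.3 (quasi-likelihood test, TMM, default filter on low counts, Benjamini-Hochberg adjustment over 11738 genes, no block). Calls needed a change of over 2-fold and an adjusted p-value under 0.05. The standard error of a log2 fold change is its size over the square root of F. CPM values used library totals with TMM factors. DESeq2 1.42.0 was an alternative. The steps were tested on simulated data.

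The members and lists were chosen with earlier results of these data known. Besides the members, the pathway genes named are those past the criteria and, in each direction, the 5 with the largest log2 fold change at an adjusted p-value below 0.05. Of each marker list, the 4 genes with the highest mean CPM are named, as are the 5 genes nearest in pattern to Nos1 and to Nos3, and any further gene was named for its values. The values of 1 follicular marker and 1 pathway gene are not reported here. Same-numbered replicates of NP and LP deviated together from their group means, with correlations across genes of 0.493, 0.223 and 0.192 for numbers 1, 2 and 3. The 3 deviations of a gene add up to 0 in each group, so the values for numbers 2 and 3 follow partly from number 1. By chi-square per degree of freedom, NP replicate 3 was no closer to LP replicate 3 (12.67) than to LP replicate 2 (12.62). The pairing of numbers 2 and 3 therefore rests on the numbers in the labels alone. No pairing of animals is stated. Alternatives were the replicate block, each sample left out, other filters and normalizations, DESeq2, and replicates 2 and 3 summed. No deposited column was left unused.

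Promoter windows came from RefSeq (GRCr8), where 7 of the 9 members were matched, Gucy1a3 and Gucy1b3 under their present symbols.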

Additional observations from a re-analysis of the deposited data

How the results depend on the processing

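Nos1 kept its direction and stayed past the criteria under the 12 alternatives in which it could be tested, with a log2 fold change of 3.98 to 4.94. It was chosen with its result known, and the same counts were used each time. These calls therefore describe how its value moved with the settings and are no further support for it. Requiring 50 reads on average removed Nos1 and left 2 members, of which 0 were past the criteria by edgeR. Of the other pathway genes, 1 (Dtna) was past them. Over all genes it was 315 of the 7943 tested, against 638 of 11738 without this filter, and the cause of the lower number was not tested. With the replicate block, 641 genes, 1 member and 5 other pathway genes were past the criteria, against 638 genes without it, and the member and the 5 pathway genes were the same. It added 7 genes to the 14 other pathway genes below an adjusted p of 0.05, Npr1 among them. Its coefficient of variation fell from 0.0645 to 0.0131, so its p-values rest largely on counting noise. With each sample left out in turn, the number of all genes past the criteria was 646 to 693 and that of other pathway genes 4 to 7. The log2 fold change then ranged from -0.11 to 0.17 for Nos3 and from -0.43 to 0.16 for Ddah1, both crossing 0. It reversed for Nos3 without NP replicate 1 (-0.03), LP replicate 2 (-0.01) or LP replicate 3 (-0.11), and for Ddah1 without NP replicate 2 (0.16) or LP replicate 1 (0.09), and the cause was not tested. The difference between Nos1 and Nos3 ranged from 3.94 to 4.89, the upper value without NP replicate 3, which held 6 of the 10 NP reads on Nos1. Gucy1a3, Gucy1b3, Pde5a and Ddah2 kept their direction and stayed below the criteria wherever they were tested. Pde3a passed the criteria without the filter, with replicates 2 and 3 summed, and without NP replicate 3, LP replicate 2 or LP replicate 3, reaching -1.10 on the log2 scale. Depth limits Nos1 in NP, where 3 reads stand for about 1 CPM.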
